A study of Mus musculus with 11 samples.

Results

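Liver sections taken 24 h after acetaminophen (paracetamol, APAP) were compared with uninjured liver sections, to describe which secreted proteins, pathways and cell-type genes differed across the whole transcriptome. The sections were chosen by their labels, and the comparison used 5 of the 11 sections of a mouse time course, namely the uninjured sections 2, 3 and 4 (0 h, n = 3) and the injured sections A and B (24 h, n = 2). Gene expression had been measured with Visium, in which a frozen section lies on a grid of barcoded spots and each captured molecule is counted by its unique molecular identifier (UMI). The tissue label of all 5 was liver, the disease label was uninjured at 0 h and POD, which the labels do not spell out, at 24 h, and no strain, genotype, age, fast or agent is given for a single section. Per the study's methods the animals were adult, male unless stated otherwise and, where wild type, C57BL/6JCrl, and the APAP model was an intraperitoneal injection after a fast. Whether the uninjured mice had been fasted is not stated, so fasting and injury cannot be told apart.

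APAP is oxidised by cytochrome P450 enzymes of the hepatocytes around the central vein to a reactive quinone imine, which glutathione captures until it runs out. The unbound product then attaches to proteins, mitochondria fail, and the pericentral hepatocytes die by necrosis. The liver also makes most proteins of blood plasma, and hepatocytes that receive interleukin-6 and interleukin-1 switch from constitutive to acute phase proteins, while endothelial, stellate and recruited myeloid cells secrete chemokines, proteases and provisional matrix at the wound.

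Counts were summed over spots on tissue with at least 800 genes and at most 20% mitochondrial UMIs. These spots held 45196102 to 67045372 UMIs per section at 0 h and 31895764 to 45997655 at 24 h, on 1937 to 2690 and 1648 to 2521 spots. The median share of mitochondrial UMIs per spot was 4.31 to 6.38% at 0 h and 1.75 to 2.13% at 24 h. Levels are TMM-scaled UMI counts per 1000000 (CPM), written for sections 2, 3 and 4 and then for sections A and B, and changes are log2 fold changes of 24 h against 0 h with the standard error of an edgeR quasi-likelihood fit. A gene was called at a Benjamini-Hochberg adjusted p under 0.05, and rose and fell are used only of called genes. Of 14821 genes tested, 41.7% were called, 23.1% higher and 18.6% lower at 24 h. The groups did not overlap in 6170 of the 6180 called genes. Such separation is therefore general and not particular to the genes named below. The split depended on scaling, since 3426 genes were called higher and 2754 lower with TMM but 6097 and 1487 with total counts, which moved the median gene from 0.05 to 0.37 on the log2 scale. Each p measures the spread between sections. The study's methods give 1 mouse per time point for this assay and the labels give no batch, so mouse, batch and time cannot be told apart.

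The 15 lists of secreted proteins and the 47 pathway lists differed widely in how many members were called. Each count given below is to be read against the 23.1% higher and 18.6% lower of all genes. Ribosome biogenesis, the actin cytoskeleton, acute phase proteins and the interleukin-6 response held mostly genes that rose. The respiratory chain, fatty acid oxidation, urea cycle, amino acid breakdown and targets of Wnt signalling held mostly genes that fell. Among the secreted proteins, 69 changed at least 2-fold with at least 20 CPM in the higher group, 47 of them higher and 22 lower. Over all 14821 genes, 1580 were called higher and 1280 lower by at least 2-fold, counted without that CPM floor. The 69 are thus a selection for description and not a share to compare. Over all 78 lists, cell types included, 41 medians lay above 0, against 51 under total-count scaling.

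**Figure D1:**
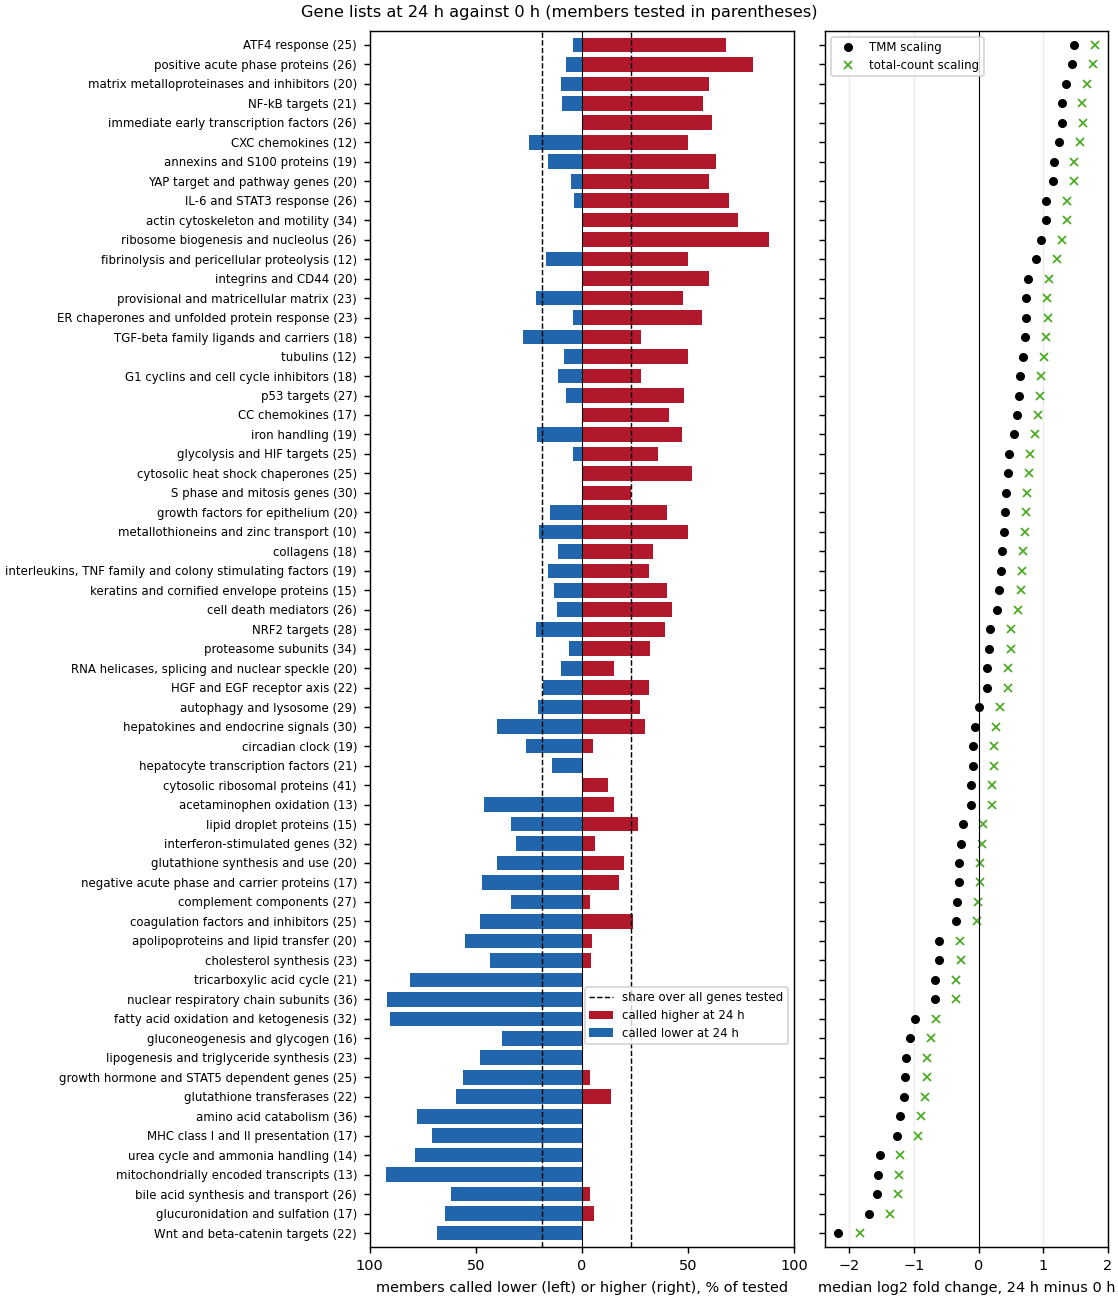
Gene lists at 24 h against 0 h, with the members tested in parentheses. The left panel gives the percentage of tested members called lower (blue, to the left) or higher (red, to the right), and dashed lines mark the shares over all genes tested (18.6% lower, 23.1% higher); the right panel gives the median log2 fold change with TMM (black) and total-count scaling (green crosses). The median lies between -2.17 for the Wnt and beta-catenin targets and 1.48 for the ATF4 response, and the green crosses lie to the right of the black points.

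Acute phase proteins rose in most members of their list. Of 26 listed proteins that hepatocytes raise in inflammation, 21 were called higher and 2 lower, against 23.1% and 18.6% of all genes, with a median log2 fold change of 1.45. Haptoglobin (Hp), which binds free haemoglobin, was among the most abundant. Its level was 2392, 2402 and 3569 CPM at 0 h and 14446 and 21788 CPM at 24 h, a change of 2.700 ± 0.24 (adjusted p = 4.07e-05). Both 24 h sections lay far above all 3 at 0 h. Itih3, an inhibitor heavy chain that binds hyaluronan, went from 584, 628 and 828 to 2669 and 3936 CPM (2.28 ± 0.19, adjusted p = 3.25e-05). Orm2, an orosomucoid that carries drugs and lipids in plasma, went from 14.6, 15.3 and 24.5 to 341 and 357 CPM (4.27 ± 0.71, adjusted p = 0.00129). For these genes the groups did not overlap and sections A and B lay within a range narrower than the difference from 0 h.

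Serum amyloid genes were higher in both injured sections but uneven among the uninjured ones. Saa1, which lies at chr7:46740497-46742980 and codes for an apolipoprotein of acute phase lipoprotein particles, was at 152, 87.7 and 636 CPM at 0 h and 2068 and 3082 CPM at 24 h. Section 4 was the high one at 0 h, and the change was 3.14 ± 1.09 (adjusted p = 0.0422). Saa2, a near-identical neighbour with which reads may be shared, followed the same order of sections. Serpina3n, a serine protease inhibitor, rose from 225, 224 and 245 to 874 and 1991 CPM (2.63 ± 0.37, adjusted p = 0.000426). The pentraxin Apcs rose from 206, 187 and 245 to 878 and 1652 CPM (2.57 ± 0.52, adjusted p = 0.00326). Both were higher in section B than in section A, and both groups were well apart. The fibrinogen chains Fga, Fgb and Fgg also rose, by 1.08, 1.35 and 0.91. The listed members that fell were C-reactive protein (Crp), a weak reactant in mice, by 0.46 on the log2 scale, and the immunoglobulin transporter Pigr, which fell by 1.28. The call for Crp was lost without section A (adjusted p = 0.219) and with total-count scaling (adjusted p = 0.414), and that for Saa1 without section 2, 3, A or B (adjusted p = 0.119, 0.109, 0.0816 and 0.142). The change of Saa1 was 4.38 without section 4, that of Serpina3n 1.91 without section B.

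**Figure D2:**
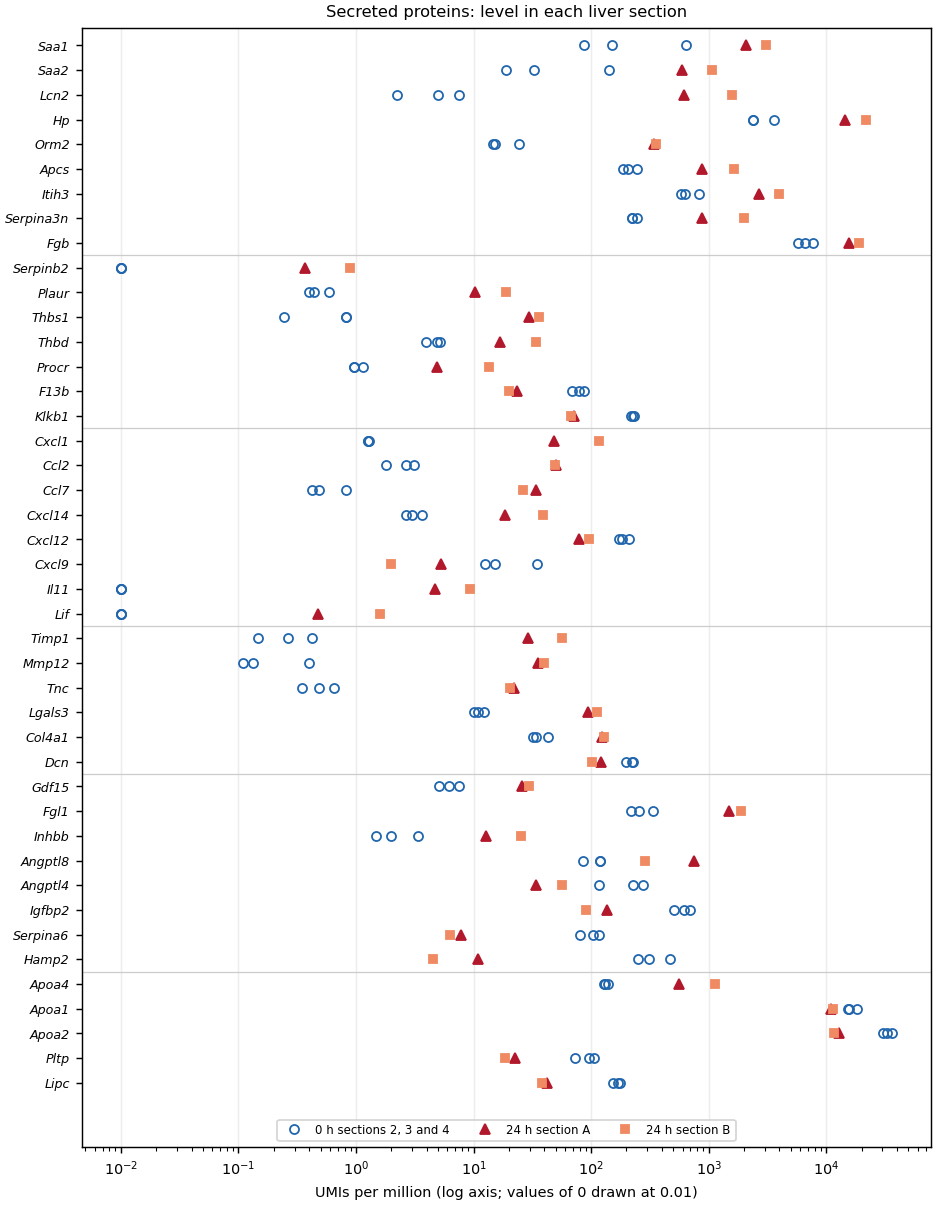
Levels of 43 secreted proteins in each liver section, in UMI counts per 1000000 on a log axis, with open circles for the 0 h sections 2, 3 and 4, triangles for 24 h section A and squares for 24 h section B; values of 0 are drawn at 0.01. Rows run from acute phase proteins through haemostasis, chemokines and cytokines, matrix and hepatokines to apolipoproteins, and Timp1 moves from 0.264, 0.147 and 0.424 CPM at 0 h to 28.9 and 56.9 CPM at 24 h.

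Plasma carriers, which the liver makes in the steady state, divided into members that rose and members that fell. Among 17 carriers and negative acute phase proteins, 3 were called higher (17.6%) and 8 lower (47.1%), against 23.1% and 18.6% of all genes. Their median of -0.31 became 0.02 with total-count scaling. Transthyretin (Ttr), the carrier of thyroxine, fell from 25319, 24083 and 22575 to 11195 and 10426 CPM (-1.15 ± 0.12, adjusted p = 9.06e-05). Serpina6, the corticosteroid-binding globulin, fell from 104, 117 and 81.03 to 7.85 and 6.29 CPM (-3.83 ± 0.57, adjusted p = 0.000665). Both 24 h sections lay below every 0 h section for either gene, and the fall of Serpina6 was the steepest of the list. Fetuin A (Ahsg), an inhibitor of calcification that is counted here among the negative reactants, rose instead, from 9899, 11077 and 12739 to 21896 and 21024 CPM (0.93 ± 0.14, adjusted p = 0.000650). Of the carriers, 1 was called higher without section 2, 3 or B and 6 with total-count scaling, and 3 were called lower without section A or with total-count scaling, 4 without section B and 5 without section 4.

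Of the coagulation factors and their inhibitors, 6 of 25 were called higher (24%) and 12 lower (48%), against 23.1% and 18.6% of all genes. The hepatocyte-made factors that fell most were plasma prekallikrein (Klkb1) and the factor XIII carrier F13b. Klkb1 fell from 219.6, 228 and 234 to 71.9 and 66.9 CPM (-1.71 ± 0.18, adjusted p = 7.41e-05). F13b fell from 86.97, 78.4 and 69.3 to 23.5 and 20.2 CPM (-1.84 ± 0.15, adjusted p = 3.24e-05). Prothrombin (F2) fell less: it fell by 0.38 on the log2 scale (adjusted p = 0.0122). The members that rose included the protein C system of vessel walls. The protein C receptor Procr went from 1.14, 0.957 and 0.9603 to 4.904 and 13.5 CPM (3.16 ± 0.42, adjusted p = 0.000288), with section B the higher. Thrombomodulin (Thbd), which turns thrombin towards protein C, went from 3.92, 5.23 and 4.89 to 16.7 and 34.2 CPM (2.44 ± 0.57, adjusted p = 0.00760). The call for F2 was lost without section A or B (adjusted p = 0.0724 and 0.0570) and with total-count scaling (adjusted p = 0.668), and that for Thbd without section B (adjusted p = 0.0705). The change of Procr was 2.26 without section B. Of the coagulation factors and inhibitors, 3 were called higher without section B, and 5 were called lower with total-count scaling.

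Several genes of fibrinolysis and pericellular proteolysis rose steeply. Plaur, the urokinase receptor, went from 0.396, 0.442 and 0.593 to 10.2 and 18.8 CPM (4.93 ± 0.53, adjusted p = 0.000114). Thrombospondin 1 (Thbs1), a platelet and matrix protein that activates TGF-beta, went from 0.242, 0.828 and 0.819 to 29.6 and 35.8 CPM (5.696 ± 0.49, adjusted p = 4.34e-05). No 0 h section came near a 24 h section for either gene. Serpinb2, a serpin of macrophages, had no UMI at 0 h and was at 0.366 and 0.893 CPM at 24 h, at least 26.05-fold higher than a floor of 3 UMIs over the 0 h group. The activators themselves did not pass the test, with tissue activator Plat at 0.198, 0.202 and 0.537 CPM at 0 h and 0.667 and 0.893 CPM at 24 h. Urokinase (Plau) was at 0.176, 0.331 and 0.141 CPM at 0 h and 0.08603 and 0.287 CPM at 24 h. Over the list 6 of 12 members were called higher and 2 lower. Of the fibrinolysis genes, the lower calls were lost with total-count scaling.

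Complement proteins tag and lyse microbes and damaged cells. Of 27 components, 1 was called higher and 9 lower, with a median of -0.33 that was -0.00564 with total-count scaling. The one that rose was C3, the central component, from 3413, 3682 and 4134 to 6302 and 7378 CPM (0.87 ± 0.15, adjusted p = 0.00121). C8g, a chain of the membrane attack complex, fell from 974, 1015 and 1015 to 439 and 343 CPM (-1.36 ± 0.21, adjusted p = 0.000646). Mannose-binding lectin Mbl1, which starts the lectin pathway, fell by 0.86 on the log2 scale. C1qa, which macrophages make, was at 121, 139 and 148 CPM at 0 h and 104 and 87.3 CPM at 24 h and did not pass. Of the complement components, 8 were called higher with total-count scaling, and 3 were called lower without section B or with total-count scaling and 14 in a fit of these 5 sections alone.

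Apolipoproteins and lipid transfer proteins mostly fell or were not called. Of the list 1 of 20 members was called higher and 11 lower, with a median of -0.61. Apoa2, a structural protein of high-density lipoprotein, fell from 36318, 32725 and 30438 to 12795 and 11602 CPM (-1.44 ± 0.16, adjusted p = 0.000111). The phospholipid transfer protein Pltp fell from 107, 96.9 and 73.5 to 22.6 and 18.6 CPM (-2.16 ± 0.21, adjusted p = 5.61e-05). Hepatic lipase (Lipc) fell from 171, 177 and 153 to 42.6 and 38.6 CPM (-2.04 ± 0.20, adjusted p = 6.41e-05). In all of these the sections of a group lay close together and the groups were apart. Apoa4, an apolipoprotein of triglyceride-rich particles, went the other way, from 129, 131 and 140.2 to 555 and 1134 CPM (2.66 ± 0.82, adjusted p = 0.0258). Apoa1, the main protein of high-density lipoprotein, fell by 0.56 on the log2 scale. The call for Apoa1 was lost without section 4, A or B (adjusted p = 0.0589, 0.118 and 0.0896) and with total-count scaling (adjusted p = 0.247), and that for Apoa4 without section 2, 3, 4 or B (adjusted p = 0.0685, 0.0671, 0.0634 and 0.151). Of the apolipoproteins, 7 were called lower with total-count scaling.

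Endocrine signals of the liver were divided. Of 30 hepatokines 9 rose (30%) and 12 fell (40%), against 23.1% and 18.6% of all genes, so the share that rose was near the general one. Gdf15, a stress hormone that suppresses appetite, rose from 6.23, 5.08 and 7.57 to 25.96 and 29.8 CPM (2.15 ± 0.28, adjusted p = 0.000252). The fibrinogen-like hepatokine Fgl1 rose from 256, 217 and 339 to 1491 and 1889.9 CPM (2.64 ± 0.31, adjusted p = 0.000166). The activin subunit Inhbb was at 1.47, 3.37 and 1.98 CPM at 0 h and 12.6 and 25.4 CPM at 24 h (3.05 ± 0.77, adjusted p = 0.0109). These levels were higher in both injured sections than in any uninjured one. Fgf21, a fasting hormone, was at 1.34, 1.99 and 3.45 CPM at 0 h and 7.01 and 5.105 CPM at 24 h and did not pass (adjusted p = 0.123). The call for Inhbb was lost without section B (adjusted p = 0.0751). Of the hepatokines and endocrine signals, 5 were called higher without section B.

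Genes of the insulin-like growth factor axis and hormones of fasting and iron differed gene by gene. Igf1, which the liver releases under growth hormone, fell from 748, 732 and 813 to 529 and 494 CPM (-0.58 ± 0.11, adjusted p = 0.00153). Its binding protein Igfbp2 fell from 511, 697 and 623 to 136 and 90.4 CPM (-2.43 ± 0.42, adjusted p = 0.00135). Igfbp1, another binding protein that rises with fasting, did not pass and was split between the injured sections, at 259 and 867 CPM against 485, 355 and 571 CPM at 0 h. The hepcidins, regulators of iron export, also parted. Hamp2 fell from 472, 311 and 253 to 10.97 and 4.499 CPM (-5.47 ± 0.83, adjusted p = 0.000806). Hamp, the main hepcidin, was at 2406, 1305 and 1504 CPM at 0 h and 685 and 2342 CPM at 24 h and did not pass. Section A was below and section B within the 0 h range for Hamp. Angptl4 and Angptl8, which restrain lipoprotein lipase in fasting and feeding, moved in opposite directions. Angptl4 fell from 116, 226 and 275 to 33.7 and 56.8 CPM (-2.19 ± 0.69, adjusted p = 0.0297). Angptl8 rose from 119, 118 and 85.5 to 745 and 285 CPM (2.26 ± 0.73, adjusted p = 0.0317). The call for Angptl4 was lost without section 3, 4, A or B (adjusted p = 0.0550, 0.0653, 0.173 and 0.0829), and that for Angptl8 without section 2, 3, 4 or A (adjusted p = 0.0713, 0.0711, 0.0920 and 0.251). The call for Igf1 was lost with total-count scaling (adjusted p = 0.0712). The change of Hamp2 was -6.26 without section A.

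Chemokines that attract neutrophils and monocytes rose steeply. Of 12 CXC chemokines 6 rose and 3 fell, and of 17 CC chemokines 7 rose. Cxcl1, a ligand of the neutrophil receptor Cxcr2 at chr5:90891241-90893115, was at 1.28, 1.29 and 1.27 CPM at 0 h and 48.2 and 118 CPM at 24 h (6.02 ± 0.70, adjusted p = 0.000197). Uninjured sections were nearly alike and section B held more than section A. Cxcl2 and Cxcl3, further ligands of that receptor, were rarer. Cxcl2 went from 0.06603, 0.313 and 0 to 1.699 and 4.66 CPM. Cxcl3 went from no UMI at 0 h to 0.08603 and 0.925 CPM, at least 19.1-fold over the floor. Ccl2, the main ligand of the monocyte receptor Ccr2, went from 2.66, 1.79 and 3.11 to 50.8 and 49.4 CPM (4.33 ± 0.44, adjusted p = 9.06e-05). Ccl7, which shares that receptor, went from 0.484, 0.423 and 0.819 to 33.7 and 26.4 CPM (5.75 ± 0.43, adjusted p = 2.75e-05). For both ligands sections A and B were nearly equal. Cxcl14, a chemokine of epithelia, rose from 2.66, 3.66 and 2.99 to 18.6 and 38.7 CPM (3.198 ± 0.44, adjusted p = 0.000403). The chemokines that fell were Cxcl12, which holds leukocytes in resting tissue, from 211, 184 and 173 to 79.6 and 95.3 CPM (-1.11 ± 0.15, adjusted p = 0.000252), the B cell attractant Cxcl13, which fell by 1.58 on the log2 scale, and the interferon-induced T cell attractant Cxcl9. Cxcl9 was at 15.4, 12.4 and 34.7 CPM at 0 h and 5.27 and 1.98 CPM at 24 h (-2.49 ± 0.68, adjusted p = 0.0152). The call for Cxcl9 was lost without section B (adjusted p = 0.111). The change of Cxcl1 was 5.23 without section B, that of Cxcl14 2.58 without section B, that of Cxcl9 -3.39 without section A. Of the CXC chemokines, 3 were called higher without section B.

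Interleukins and related cytokines were mostly at low levels, and some were detected at 24 h and not at 0 h. Il11, which acts on stromal cells and hepatocytes, had no UMI in any 0 h section and was at 4.69 and 9.38 CPM at 24 h, at least 296-fold higher than the floor of 3 UMIs over the 0 h group. Lif, a relative of interleukin-6, also had no UMI at 0 h and was at 0.473 and 1.595 CPM, at least 41.7-fold higher. Osm, made by neutrophils and macrophages, had 3 UMIs at 0 h and 18 at 24 h, a ratio of 10.4 (95% interval 3.04 to 55.2) by counting error. Il6 itself was too low to be tested. Tnf rose from 0.132, 0.129 and 0.367 to 2.56 and 2.62 CPM (3.68 ± 0.41, adjusted p = 0.000109), whereas Il1b was at 19.7, 18.5 and 8.92 CPM at 0 h and 12.97 and 19.4 CPM at 24 h and did not pass. Csf1, the growth factor of macrophages, rose from 9.31, 8.76 and 11.9 to 24.2 and 26.8 CPM (1.35 ± 0.17, adjusted p = 0.000217). Both 24 h sections lay above all 0 h sections for Tnf and Csf1. Over the list 6 of 19 were called higher (31.6%) and 3 lower (15.8%), against 23.1% and 18.6% of all genes. Those called lower were Il15, Il18 and the death ligand Tnfsf10. Of the interleukins and related cytokines, 1 was called lower without section A or B or with total-count scaling.

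Growth factors for epithelium differed by family. Ligands of the EGF receptor rose from low levels. Ereg, epiregulin, went from 0.1101, 0.479 and 0.4801 to 3.14 and 4.72 CPM (3.46 ± 0.57, adjusted p = 0.000949). Hbegf rose from 1.32, 1.69 and 1.67 to 5.08 and 8.17 CPM (2.08 ± 0.38, adjusted p = 0.00172). Areg, a further ligand, went from 0.04402, 0.0368 and 0.0847 to 0.473 and 0.734 CPM (3.44 ± 0.91). Hgf, the stellate cell factor that drives hepatocyte growth through Met, was at 1.32, 1.53 and 1.75 CPM at 0 h and 1.35 and 1.24 CPM at 24 h and did not pass. Wnt signals of central vein and sinusoidal endothelium fell. The ligand Wnt2 fell from 8.100, 6.55 and 7.09 to 1.44 and 1.37 CPM (-2.36 ± 0.35, adjusted p = 0.000487). The Wnt amplifier Rspo3 fell from 6.67, 5.19 and 5.96 to 2.26 and 2.81 CPM (-1.23 ± 0.32, adjusted p = 0.00977). Wnt9b, a ligand of the central vein, was at 0.616, 0.589 and 0.819 CPM at 0 h and 0.129 and 0.0319 CPM at 24 h. In a section, fewer cells of a type and less RNA per cell cannot be told apart, and this holds for each gene of a single cell type below. The call for Areg was lost without section B (adjusted p = 0.0589), and that for Rspo3 without section A (adjusted p = 0.0828).

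In the TGF-beta family the TGF-beta ligands rose, while Bmp2, Bmp6 and Gdf2 fell and Bmp4 and Bmp10 did not pass. Tgfb1 rose from 9.31, 10.7 and 11.5 to 22.2 and 23.7 CPM (1.13 ± 0.22, adjusted p = 0.00263), and Tgfb3 and Tgfb2 rose from lower levels by 2.34 and 2.099. Fstl3, a secreted antagonist of activin, rose from 0.3302, 0.405 and 0.621 to 3.68 and 5.42 CPM (3.34 ± 0.43, adjusted p = 0.000235). Bmp2 and Gdf2 (BMP9), which sinusoidal endothelium and stellate cells make, fell. Bmp2 went from 22.5, 20.04 and 22.4 to 4.904 and 6.96 CPM (-1.87 ± 0.27, adjusted p = 0.000425). Gdf2 went from 12.7, 13.6 and 17.3 to 2.65 and 2.46 CPM (-2.505 ± 0.41, adjusted p = 0.000975). The 24 h sections were alike for both and below the 0 h range. Over the family 5 of 18 members were called higher and 5 lower (27.8% each), against 23.1% and 18.6% of all genes. The call for Tgfb3 was lost without section A (adjusted p = 0.0964). Of the TGF-beta family, 8 were called higher with total-count scaling.

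Proteases of the matrix and their inhibitors mostly rose, 12 of 20 with 2 lower. Timp1, the inducible inhibitor of metalloproteinases, rose from 0.264, 0.147 and 0.424 to 28.9 and 56.9 CPM (7.33 ± 0.57, adjusted p = 3.24e-05). Adamts4, which cleaves proteoglycans, rose from 0.06603, 0.0184 and 0.0847 to 1.72 and 3.09 CPM (5.44 ± 0.58, adjusted p = 8.88e-05). The stromelysins were at the edge of detection in uninjured liver. Mmp10 had no UMI at 0 h and was at 1.89 and 1.08 CPM at 24 h, at least 70.6-fold higher, and Mmp3 had 1 UMI at 0 h and 93 at 24 h, a ratio of 162 (95% interval 28.3 to 6447). The constitutive gelatinase Mmp2 went the other way, from 2.97, 3.26 and 4.21 to 0.4301 and 0.542 CPM (-2.85 ± 0.74, adjusted p = 0.0119). The call for Mmp2 was lost without section A or B (adjusted p = 0.0918 and 0.0624). Of the matrix metalloproteinases and inhibitors, 5 were called lower in a fit of these 5 sections alone.

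Several matrix proteins of wounds rose, and the small proteoglycans Dcn and Lum fell. Tenascin C (Tnc), which appears in healing wounds, went from 0.484, 0.3497 and 0.6496 to 22.3 and 20.3 CPM (5.46 ± 0.40, adjusted p = 2.61e-05). Galectin 3 (Lgals3), a lectin of activated macrophages, went from 10.1, 11.01 and 12.4 to 93.4 and 111 CPM (3.200 ± 0.34, adjusted p = 9.67e-05). Both were alike in sections A and B. Fibronectin (Fn1), already abundant in hepatocytes, rose by 0.74. Decorin (Dcn) fell from 221, 198 and 226 to 121 and 102 CPM (-0.95 ± 0.24, adjusted p = 0.00838), and lumican (Lum) fell by 1.33 on the log2 scale. Over the list 11 of 23 were called higher and 5 lower. Of the collagens and their processing enzymes, 6 of 18 rose and 2 fell, and the fibrillar chains Col1a1, Col1a2 and Col3a1 did not pass. Basement membrane collagen did: Col4a1 rose from 32.2, 34.1 and 42.9 to 124 and 129.95 CPM (1.802 ± 0.32, adjusted p = 0.00169), with Col4a2, its partner chain, alongside (1.86 ± 0.29). The calls for Dcn and Lum were lost without section B (adjusted p = 0.0722 and 0.0503). Of the matrix proteins, 7 were called higher without section B, and 1 was called lower without section B. Of the collagens, 3 were called higher without section 2 or A, and 4 were called lower in a fit of these 5 sections alone.

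The secreted lists held further genes that changed at least 2-fold, given here with values for a few. Il1rn, the antagonist of interleukin-1 receptors, rose from 1.36, 2.32 and 2.32 to 11.9 and 29.1 CPM (3.35 ± 0.51, adjusted p = 0.000755). Orm1, the abundant orosomucoid, rose from 1898, 1922 and 2479 to 5108 and 6023 CPM (1.41 ± 0.26, adjusted p = 0.00179). Ceruloplasmin (Cp), the copper carrier of plasma, rose from 424, 404 and 443 to 970.1 and 1327 CPM (1.44 ± 0.16, adjusted p = 0.000111). The injured sections lay above all uninjured ones for each, and Il1rn was higher in section B. Ctgf, a matricellular protein under YAP and TGF-beta, rose from 7.29, 12.1 and 11.9 to 51.8 and 48.1 CPM (2.26 ± 0.62, adjusted p = 0.0155). Annexin A2 (Anxa2), a cell surface receptor of plasminogen, rose from 15.2, 15.2 and 18.7 to 72.4 and 112 CPM (2.49 ± 0.41, adjusted p = 0.00109). The groups were well apart in both. Chemerin (Rarres2), a chemoattractant adipokine, fell from 896, 939 and 938 to 348 and 266 CPM (-1.59 ± 0.16, adjusted p = 6.81e-05). Apoc1, a small apolipoprotein, fell from 18383, 18035 and 17194 to 8443 and 8525 CPM (-1.07 ± 0.15, adjusted p = 0.000353). The others that rose were Serpina3m, Itih4, Lbp and Serpina10 of the acute phase list, the chemokines Ccl6 and Pf4, the hormones Enho and Inhbe, osteopontin (Spp1), Lrrc32 and the collagen chaperone Serpinh1. The others that fell were Angptl6, Igfals, Serpind1, Ecm1 and Col14a1. The call for Ctgf was lost without section 2, A or B (adjusted p = 0.0538, 0.0611 and 0.0542). The change of Il1rn was 2.58 without section B.

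Metallothioneins, which bind zinc and copper and scavenge radicals, rose steeply and differed between the injured sections. Mt1, at chr8:94179082-94180327, was at 179.5, 129 and 311 CPM at 0 h and 2229 and 19050.1 CPM at 24 h (5.69 ± 1.17, adjusted p = 0.00389). Mt2, its neighbour at chr8:94172664-94173568, was at 17.2, 11.2 and 33.1 CPM at 0 h and 370.2 and 3323 CPM at 24 h (6.496 ± 1.38, adjusted p = 0.00455). Section B held several times the level of section A for both genes, and section A was above every 0 h section. The zinc importer Slc39a14 rose from 73.1, 68.7 and 61.1 to 145 and 184 CPM (1.28 ± 0.22, adjusted p = 0.00114), and the importer Slc39a4 fell by 0.93 on the log2 scale. Of 10 metallothioneins and zinc transporters 5 rose and 2 fell. Mt3, a metallothionein of brain, had 1 UMI at 0 h and 420 at 24 h, a ratio of 729 (95% interval 130.2 to 28876). Metal-dependent transcription of these genes runs through the factor Mtf1 and metal response elements, whose core TGCNCNC was searched on both strands of the 250 bases before each RefSeq start (GRCm38.p6), where N is any base. The core was in 44.4% of 32851 promoters, so that a single match is common. There were 3 or more matches, with overlapping ones counted separately, in 4.65%. The core was in 7 of the 8 list members with a promoter in that set. Of these 7, 3 were called higher, and of all 8, 4 were. The windows of the Mt1 and Mt2 promoters are printed because Mt1 and Mt2 joined a steep change with a high level, with the matches in capitals, from chr8:94179046-94179088 for Mt1 and chr8:94172375-94172594 for Mt2, both on the plus strand. The change of Mt1 was 6.53 without section A and 3.43 without section B, that of Mt2 7.34 without section A and 4.17 without section B.
Mt1: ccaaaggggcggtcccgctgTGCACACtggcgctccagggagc
Mt2: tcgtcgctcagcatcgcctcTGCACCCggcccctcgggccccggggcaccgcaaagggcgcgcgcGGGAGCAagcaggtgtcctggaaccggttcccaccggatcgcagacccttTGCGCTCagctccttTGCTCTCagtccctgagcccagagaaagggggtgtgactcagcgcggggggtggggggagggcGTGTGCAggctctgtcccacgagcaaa
The searched 250 bases before the RefSeq start held 5 matches for Mt2 and 1 for Mt1. Bases past that start were not searched, so these are not counts of all elements of either gene. These letters are a description of the promoters and not evidence of bound factor.

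Genes of iron handling differed gene by gene. Haem oxygenase 1 (Hmox1), which opens the haem ring, went from 11.7, 14.02 and 12.4 to 49.8 and 83.6 CPM (2.39 ± 0.29, adjusted p = 0.000210). Ferritin heavy chain (Fth1), which stores iron, went from 4459.5, 4132 and 4076 to 13418 and 11936 CPM (1.59 ± 0.19, adjusted p = 0.000146), while the light chain Ftl1 did not pass. Hemopexin (Hpx), which carries free haem to hepatocytes, rose by 1.36. Bmp6, the endothelial inducer of hepcidin, fell by 1.27 on the log2 scale, and the exporter ferroportin (Slc40a1) fell by 0.53. The list had 9 members higher and 4 lower of 19, some of them shared with the acute phase list. The call for Slc40a1 was lost without section 2 or A (adjusted p = 0.0755 and 0.205) and with total-count scaling (adjusted p = 0.306).

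Cytosolic chaperones, which refold damaged proteins, rose in part of the list. Of 25 members 13 rose, with a median of 0.46. Hspa1a, an inducible 70 kDa chaperone whose near-identical neighbour Hspa1b may share its reads, went from 1.06, 6.79 and 2.51 to 167 and 99.9 CPM (5.25 ± 0.66, adjusted p = 0.000299). The small heat shock protein Hspb1 went from 33.7, 30.6 and 37.96 to 365 and 351 CPM (3.39 ± 0.66, adjusted p = 0.00281). Injured sections were well above uninjured ones in both. Hsp90ab1, a constitutive form of the 90 kDa chaperone, was at 507, 486 and 547 CPM at 0 h and 543 and 477 CPM at 24 h and did not pass. The change of Hspa1a was 6.21 without section 3. Of the cytosolic heat shock chaperones, 5 were called higher without section A and 8 without section 2 or 3.

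Chaperones of the endoplasmic reticulum rose together, 13 of 23 with 1 lower, with a median log2 ratio of section A to section B of 0.44. Hspa5 (BiP), the main chaperone of the lumen, went from 717, 559 and 714 to 2421 and 1595 CPM (1.597 ± 0.37, adjusted p = 0.00643). Creld2, a lumenal protein of the stress response, went from 112, 56.98 and 115 to 1072 and 476 CPM (3.03 ± 0.79, adjusted p = 0.0125). The secreted factor Manf went from 381, 288 and 332 to 1316 and 738 CPM (1.62 ± 0.38, adjusted p = 0.00698). All 3 rose furthest in section A and were above the 0 h range in section B. The one member that fell was Creb3l3, a hepatocyte transcription factor of fasting, which fell by 0.70 on the log2 scale. The call for Creb3l3 was lost without section 3, 4, A or B (adjusted p = 0.0724, 0.0805, 0.134 and 0.141) and with total-count scaling (adjusted p = 0.206), and those for Creld2, Hspa5 and Manf without section A (adjusted p = 0.0881, 0.0599 and 0.0783). Of the ER chaperones, 2 were called higher without section A.

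The promoters of the chaperone list were searched for the element to which the stress sensor ATF6 binds with NF-Y. The ER stress response element, CCAAT and CCACG set 9 bases apart, was searched on both strands of the 250 bases before the start. It was in 37 of 32851 RefSeq promoters (0.113%) and in 7 of the 19 list members with a promoter in that set, of which 6 were called higher, against 12 of all 19. The list was drawn up as chaperones and genes of the unfolded protein response, so its share with the element is not a result of these data. All 7 windows are printed to show where the element sits. They run from 20 bases before the first match to 20 after the last, with the match in capitals. Hspa5 is from chr2:34772005-34772063 (plus strand), Hsp90b1 from chr10:86705513-86705676 (minus), Pdia6 from chr12:17266471-17266529 (plus), Calr from chr8:84847055-84847113 (minus), Canx from chr11:50325780-50325838 (minus), Dnajc3 from chr14:118937807-118937865 (plus) and Creld2 from chr15:88819500-88819558 (plus), each read in the direction of transcription.
Hspa5: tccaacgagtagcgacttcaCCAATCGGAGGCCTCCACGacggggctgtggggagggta
Hsp90b1: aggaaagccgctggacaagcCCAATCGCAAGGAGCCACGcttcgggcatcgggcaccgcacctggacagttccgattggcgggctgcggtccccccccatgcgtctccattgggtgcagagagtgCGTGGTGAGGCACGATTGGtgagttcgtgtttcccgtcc
Pdia6: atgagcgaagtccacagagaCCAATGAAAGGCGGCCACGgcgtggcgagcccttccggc
Calr: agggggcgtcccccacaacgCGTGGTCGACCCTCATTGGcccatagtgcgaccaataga
Canx: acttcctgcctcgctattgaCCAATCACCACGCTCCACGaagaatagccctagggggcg
Dnajc3: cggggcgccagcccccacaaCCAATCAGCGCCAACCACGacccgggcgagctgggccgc
Creld2: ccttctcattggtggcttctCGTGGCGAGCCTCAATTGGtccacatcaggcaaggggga
The Hsp90b1 window held the element in both orientations. Canx, which holds the element and codes for a membrane chaperone, was at 331, 296 and 352 CPM at 0 h and 369.5 and 344 CPM at 24 h and did not pass. The matches do not show that a factor was bound.

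Genes under ATF4, the transcription factor of the integrated stress response, had the highest median of any pathway list, 1.48, with 17 of 25 called higher and 1 lower. Atf4 itself was at 189, 167 and 159 CPM at 0 h and 228 and 196 CPM at 24 h and did not pass. Ddit3 (CHOP), a factor of stress-induced death, rose from 10.3, 14.5 and 9.74 to 227 and 116 CPM (3.89 ± 0.62, adjusted p = 0.00101). Nupr1, a nuclear stress protein, rose from 4.56, 3.699 and 4.52 to 113 and 46.8 CPM (4.23 ± 0.83, adjusted p = 0.00315). Enzymes of serine and asparagine synthesis, which uninjured liver hardly expressed, rose as well. Psat1 went from 0.682, 0.883 and 0.706 to 29.1 and 24.4 CPM (5.13 ± 0.20, adjusted p = 6.87e-07). Asparagine synthetase (Asns) rose from 0.814, 0.865 and 0.706 to 8.47 and 10.5 CPM (3.56 ± 0.46, adjusted p = 0.000297). The cystine importer Slc7a11, which feeds glutathione synthesis, had 1 UMI at 0 h and 207 at 24 h, a ratio of 359 (95% interval 63.8 to 14266), and was at 2.15 and 3.41 CPM at 24 h. Vldlr, a lipoprotein receptor, was the member that fell, from 1.299, 1.64 and 0.678 to 0.108 and 0.0957 CPM (-3.54 ± 0.50). The change of Nupr1 was 3.46 without section A.

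The C/EBP-ATF response element, to which ATF4 and C/EBP proteins bind, was searched in the same way as TGATGNAA. It was in 3.45% of all RefSeq promoters and in 7 of the 20 list members with a promoter. Of these 7, 5 were called higher, and of all 20, 14 were. This list was drawn up as genes under ATF4, so its share with the element is likewise not a result of these data. The windows are printed for comparison with those of the chaperones, with matches in capitals. Asns is from chr6:7693210-7693252 (minus strand), Chac1 from chr2:119351029-119351076 (plus), Atf3 from chr1:191183416-191183463 (minus), Slc7a11 from chr3:50443633-50443699 (minus), Vldlr from chr19:27216800-27216847 (plus), Fgf21 from chr7:45615602-45615649 (minus) and Nupr1 from chr7:126625553-126625600 (minus).
Asns: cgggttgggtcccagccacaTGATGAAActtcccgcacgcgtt
Chac1: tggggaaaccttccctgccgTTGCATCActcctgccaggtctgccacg
Atf3: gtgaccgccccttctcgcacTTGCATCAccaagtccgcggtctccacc
Slc7a11: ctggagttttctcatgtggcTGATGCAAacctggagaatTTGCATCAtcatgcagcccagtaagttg
Vldlr: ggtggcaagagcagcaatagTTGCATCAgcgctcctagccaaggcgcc
Fgf21: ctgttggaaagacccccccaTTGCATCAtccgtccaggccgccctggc
Nupr1: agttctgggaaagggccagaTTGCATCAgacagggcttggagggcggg
The Slc7a11 window held the element more than once. Members with the element included the falling Vldlr and Fgf21, which did not pass. The heat shock element GAANNTTCNNGAA, by comparison, was in 0.466% of promoters and in 2 of 20 cytosolic chaperones, Hspd1 and Hspe1, which share a promoter window and were not called.

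Targets of NRF2, a transcription factor that KEAP1 releases when it meets electrophiles, rose in 11 of 28 cases (39.3%, against 23.1% of all genes). The 6 that fell made up 21.4%, near the 18.6% of all genes. Sulfiredoxin (Srxn1) rose from 30.3, 27.8 and 28.7 to 258 and 220.2 CPM (3.05 ± 0.33, adjusted p = 0.000105). Nqo1, a quinone reductase, rose from 3.92, 3.497 and 3.22 to 12.99 and 8.77 CPM (1.62 ± 0.27, adjusted p = 0.00101). The groups did not overlap in either. The subunits of the enzyme that limits glutathione synthesis did not pass. Gclc, the catalytic one, was at 210.01, 184 and 204 CPM at 0 h and 144 and 173 CPM at 24 h. The modifier subunit Gclm was at 216, 215 and 194 CPM at 0 h and 176 and 188 CPM at 24 h. Me1, a source of NADPH, fell by 2.06 on the log2 scale. Over the genes of glutathione synthesis and use 4 of 20 rose and 8 fell, with a median of -0.31 that became 0.02 with total-count scaling. Of the glutathione genes, 4 were called lower without section A or with total-count scaling.

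Among 22 glutathione transferases, which conjugate electrophiles, 13 fell and 3 rose. Gsta1 rose steeply, from 6.14, 4.53 and 2.37 to 360.03 and 337 CPM (6.32 ± 0.64, adjusted p = 9.65e-05), and reads may be shared with near-identical copies of this gene. Gstp1 rose from 291, 424 and 335 to 1122 and 608 CPM (1.305 ± 0.44, adjusted p = 0.0380). The abundant Gsta3 fell from 1972, 1586 and 1483 to 449.9 and 317 CPM (-2.13 ± 0.20, adjusted p = 5.42e-05). Sections A and B lay on the same side of the 0 h range in each of these. The microsomal Mgst1 fell by 1.57 on the log2 scale, and the peroxidase Gpx1, which spends glutathione on hydrogen peroxide, fell from 4370.1, 4629 and 4923 to 1575 and 1058 CPM (-1.82 ± 0.28, adjusted p = 0.000605). The call for Gstp1 was lost without section 2, 3, 4 or A (adjusted p = 0.117, 0.0589, 0.0987 and 0.293). Of the glutathione transferases, 8 were called lower without section B.

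Several drug-metabolising enzymes fell. Cyp3a11, which with Cyp2e1 and Cyp1a2 oxidises APAP, fell from 2969, 2278 and 1168 to 164 and 87.1 CPM (-4.09 ± 0.91, adjusted p = 0.00596). Cyp2a5, a hydroxylase of coumarin, rose from 141, 92.6 and 43.4 to 474 and 420.3 CPM (2.27 ± 0.55, adjusted p = 0.00838). Its near-identical neighbour Cyp2a4, with which reads may be shared, also rose and was much rarer. Over the oxidation list 6 of 13 fell and 2 rose, with a median of -0.12 that became 0.20 with total-count scaling, and the nuclear receptors Nr1i2, Nr1i3 and Ahr, which regulate such enzymes, did not pass. Conjugation of APAP with glucuronic acid and sulfate draws on a list in which 11 of 17 fell and 1 rose, with a median of -1.70. Ugt2b1, a glucuronosyltransferase, fell from 288, 238 and 264 to 20.9 and 12.8 CPM (-3.96 ± 0.55, adjusted p = 0.000431). Papss2, which makes the sulfate donor, fell from 116, 143 and 112 to 22.2 and 14.4 CPM (-2.75 ± 0.30, adjusted p = 0.000107). Sult2a8, a bile acid sulfotransferase, fell from 657, 600.2 and 584 to 25.7 and 7.47 CPM (-5.203 ± 0.73, adjusted p = 0.000516). The call for Cyp3a11 was lost without section B (adjusted p = 0.0594). The change of Sult2a8 was -6.36 without section A and -4.58 without section B. Of the APAP oxidation genes, 3 were called lower without section B.

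**Figure D3:**
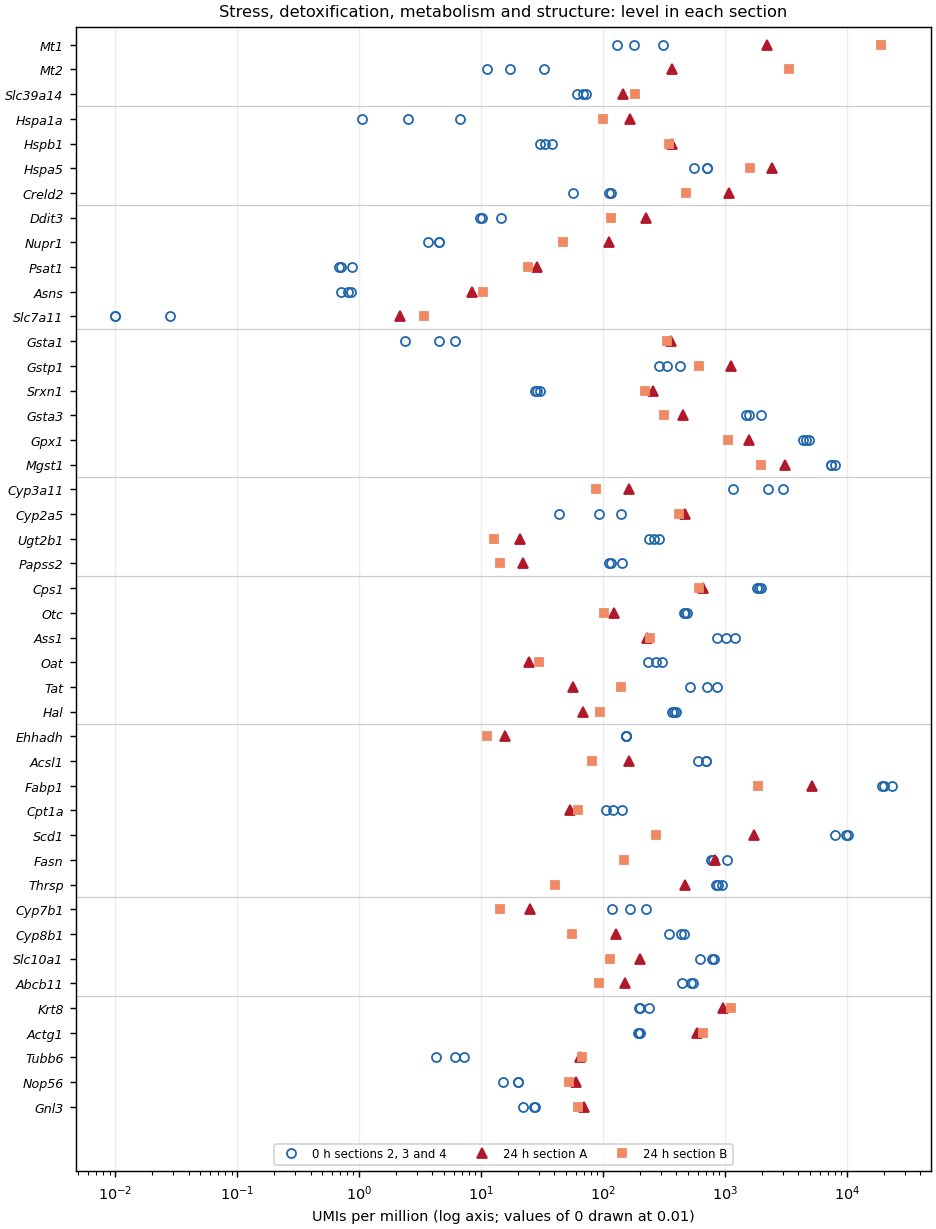
Levels of 44 genes of stress, detoxification, metabolism and cell structure in each liver section, in UMI counts per 1000000 on a log axis, with open circles for the 0 h sections 2, 3 and 4, triangles for 24 h section A and squares for 24 h section B. Mt1 reaches 19050.1 CPM in section B against 2229 CPM in section A, while Scd1, Fasn and Thrsp are lower in section B than in section A.

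Most genes of nitrogen metabolism fell. Of 14 genes of the urea cycle and ammonia handling 11 fell, and of 36 genes of amino acid breakdown 28 fell, with medians of -1.52 and -1.22. Cps1, which commits ammonia to urea, fell from 1891, 1975 and 1850.1 to 660.3 and 609 CPM (-1.59 ± 0.18, adjusted p = 0.000127). Ass1, argininosuccinate synthase, fell from 1021, 1217 and 855 to 232 and 242 CPM (-2.12 ± 0.29, adjusted p = 0.000310). Both fell by a like amount in sections A and B. Arg1, the last enzyme of the cycle, was at 1059, 902 and 811 CPM at 0 h and 493 and 638 CPM at 24 h and did not pass. Oat, an ornithine enzyme of the pericentral zone, fell from 307, 274 and 233 to 24.6 and 30.1 CPM (-3.31 ± 0.18, adjusted p = 5.89e-06). Histidine ammonia-lyase (Hal), which opens histidine breakdown, fell from 369, 395 and 384 to 68.97 and 94.7 CPM (-2.22 ± 0.23, adjusted p = 8.40e-05). Oat and Hal were below the 0 h range in both injured sections.

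Some genes of glucose output fell, and some of glycolysis rose. G6pc, which frees glucose for release, fell from 494, 450.4 and 444 to 65.3 and 33.1 CPM (-3.23 ± 0.85, adjusted p = 0.0127). Fbp1, of the same pathway, fell by 1.82 on the log2 scale, whereas Pck1, the other control point, was at 1186, 1476 and 1525 CPM at 0 h and 228 and 958 CPM at 24 h and did not pass. Over the gluconeogenesis list 6 of 16 fell. Of 25 glycolysis and hypoxia genes 9 rose and 1 fell. Pkm, the pyruvate kinase of non-hepatocytes and growing cells, rose from 19.5, 23.1 and 26.4 to 114 and 175 CPM (2.65 ± 0.32, adjusted p = 0.000199). Aldolase A (Aldoa) rose from 108, 119.8 and 118 to 216 and 246 CPM (0.999 ± 0.17, adjusted p = 0.000914). The call for G6pc was lost without section B (adjusted p = 0.102).

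Most genes of the mitochondrial lists fell. In the tricarboxylic acid cycle 17 of 21 genes fell, and of the nuclear-encoded respiratory chain subunits 33 of 36, each list with a median of -0.67. Falls of single genes were modest. Sdhc of complex II went from 163, 148 and 139.6 to 64.95 and 64.03 CPM (-1.22 ± 0.13, adjusted p = 9.27e-05). Atp5c1 of the ATP synthase went from 468, 474 and 447 to 229 and 195 CPM (-1.13 ± 0.12, adjusted p = 8.68e-05). Of the transcripts of the mitochondrial genome 12 of 13 fell, with a median of -1.55. The first listed, mt-Nd1, was at 4335, 4148 and 3000.5 CPM at 0 h and 1039 and 1267 CPM at 24 h. In spots off the tissue, without TMM scaling, mt-Nd1 was at 9273, 5643 and 5013 CPM at 0 h. At 24 h it was at 6848 and 6719 CPM there, so the groups overlapped off the tissue. The part of such RNA in the fall was not tested. mt-Co2 went from 6889.9, 6584 and 4938 to 1337 and 1717 CPM (-2.01 ± 0.40, adjusted p = 0.00303). Of the tricarboxylic acid cycle genes, 8 were called lower with total-count scaling. Of the nuclear respiratory chain subunits, 18 were called lower with total-count scaling. Of the mitochondrially encoded transcripts, 5 were called lower without section A.

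Fatty acid oxidation and ketogenesis fell in 29 of 32 genes, with a median of -0.98. The peroxisomal Ehhadh fell from 155, 153 and 154 to 15.7 and 11.3 CPM (-3.51 ± 0.40, adjusted p = 0.000155). Acsl1, which activates fatty acids, fell from 601, 703 and 704 to 165 and 81.8 CPM (-2.44 ± 0.44, adjusted p = 0.00176). Cpt1a, the gate to the mitochondrion, fell from 107, 144 and 119.8 to 53.9 and 62.3 CPM (-1.09 ± 0.22, adjusted p = 0.00272). The PPAR-alpha target Cyp4a10 did not pass, at 108, 97.7 and 28.2 CPM at 0 h and 119 and 103 CPM at 24 h. Its neighbour Cyp4a14 was at 53.2, 76.1 and 8.39 CPM at 0 h and 138 and 138 CPM at 24 h and did not pass either. Fabp1, the fatty acid carrier of hepatocytes, fell from 19451, 20174 and 23347 to 5192 and 1852 CPM (-2.58 ± 0.81, adjusted p = 0.0279). The call for Fabp1 was lost without section 4 or B (adjusted p = 0.0504 and 0.172). The change of Acsl1 was -3.03 without section A, that of Fabp1 -3.503 without section A. Of the fatty acid oxidation genes, 18 were called lower without section B and 19 with total-count scaling.

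In lipid synthesis the injured sections differed from each other. In lipogenesis 11 of 23 genes fell, and the median log2 ratio of section A to section B over the list was 0.71. Elovl5, an elongase of unsaturated fatty acids, fell from 397, 528 and 370.3 to 87.8 and 46.3 CPM (-2.68 ± 0.34, adjusted p = 0.000246). The insulin-driven enzymes did not pass. Fatty acid synthase (Fasn) was at 1048, 805 and 774 CPM at 0 h and 829.9 and 149 CPM at 24 h. Stearoyl-CoA desaturase (Scd1) was at 9929, 10306 and 7924 CPM at 0 h and 1723 and 272 CPM at 24 h. For Fasn section A was within the 0 h range and section B below it, and for Scd1 both were below. In cholesterol synthesis 10 of 23 fell and 1 rose. Among lipid droplet proteins 4 of 15 rose (26.7%) and 5 fell (33.3%), against 23.1% and 18.6% of all genes. Cidec, which fuses droplets, rose from 0.6603, 1.09 and 1.19 to 4.22 and 6.86 CPM (2.499 ± 0.65, adjusted p = 0.0119). The call for Cidec was lost without section B (adjusted p = 0.0751). Of the lipogenic genes, 5 were called lower without section B and 6 with total-count scaling. Of the cholesterol synthesis genes, 3 were called lower without section B and 6 with total-count scaling. Of the lipid droplet proteins, the higher calls were lost without section B, with 2 made without section 3, and 3 were called lower without section B.

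Bile acid handling fell at synthesis, uptake and export, 16 of 26 genes with 1 higher. Cyp8b1, which makes cholic acid, fell from 436, 461 and 345 to 127.4 and 55.8 CPM (-2.18 ± 0.37, adjusted p = 0.00116). Slc10a1, the sinusoidal importer, fell from 791, 815 and 627 to 200.2 and 114 CPM (-2.25 ± 0.26, adjusted p = 0.000136). Abcb11, the canalicular export pump, fell from 448, 551 and 532 to 150.3 and 92.2 CPM (-2.07 ± 0.37, adjusted p = 0.00164). All sections at 24 h lay below those at 0 h. The basolateral exporter Abcc4 was the gene that rose, from 2.44, 3.202 and 2.29 to 8.17 and 7.11 CPM (1.53 ± 0.39, adjusted p = 0.00977), while Cyp7a1, the rate-limiting enzyme of synthesis, did not pass at 36.8, 9.96 and 17.7 and then 10.9 and 0.447 CPM. Genes kept up by growth hormone through STAT5 fell in 14 of 25 cases, and the receptor Ghr fell from 304, 300.4 and 302 to 86.2 and 57.3 CPM (-2.07 ± 0.21, adjusted p = 7.52e-05). The call for Abcc4 was lost without section A (adjusted p = 0.0579). The change of Cyp8b1 was -2.89 without section A. Of the growth hormone-dependent genes, 8 were called lower without section B.

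Few regulators of hepatocyte identity were called. Of 21 hepatocyte transcription factors 3 fell, Ppara, Nr2f6 and Klf15, and Hnf4a was at 179, 179 and 167 CPM at 0 h and 144 and 183 CPM at 24 h. Klf15 fell from 149, 134 and 161 to 72.1 and 90.3 CPM (-0.87 ± 0.18, adjusted p = 0.00330), and Ppara and Nr2f6 had changes of -0.85 and -0.49. In the circadian clock 5 of 19 genes fell and 1 rose. Arntl, of the activating arm, fell from 17.4, 15.4 and 16.7 to 8.796 and 9.32 CPM (-0.87 ± 0.14, adjusted p = 0.000916), and the repressor Cry1 was the one that rose (0.72 ± 0.26, adjusted p = 0.0423). The hour of day at which sections were taken is not given in the labels. The call for Cry1 was lost without section 2, 3, 4, A or B (adjusted p = 0.142, 0.0920, 0.0982, 0.0709 and 0.225), and those for Nr2f6 and Ppara without section B (adjusted p = 0.0561 and 0.0858) and with total-count scaling (adjusted p = 0.267 and 0.0613). Of the hepatocyte transcription factors, 1 was called lower without section B or with total-count scaling. Of the clock genes, 3 were called higher with total-count scaling or in a fit of these 5 sections alone, and 3 were called lower without section A or B.

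Early transcription factors and inflammatory signalling were higher at 24 h. 16 of 26 immediate early genes, 12 of 21 NF-kB targets and 18 of 26 genes of the interleukin-6 response rose. Some members are shared with the acute phase, chemokine and cytokine lists, so these counts are not independent of those above. Nfkbia, the first listed NF-kB target, was at 47.7, 56.6 and 60.05 CPM at 0 h and 35.98 and 46.2 CPM at 24 h. Fosl1, an AP-1 subunit of wounds, had 1 UMI at 0 h and 1215 at 24 h, a ratio of 2109.9 (95% interval 378 to 83406), and stood at 13.8 and 18.3 CPM at 24 h. Ier3 rose from 1.85, 1.82 and 1.41 to 10.97 and 45.3 CPM (4.04 ± 0.54, adjusted p = 0.000389), with section B the higher. Jun and Dusp1 did not pass. Socs3, the feedback inhibitor of interleukin-6 signalling, rose from 3.896, 2.26 and 2.57 to 16.8 and 34.7 CPM (3.14 ± 0.38, adjusted p = 0.000187). Lrg1, a secreted target of STAT3, rose from 428, 413 and 673 to 2026 and 2329 CPM (2.11 ± 0.35, adjusted p = 0.00105). Sections A and B were both above the 0 h range for each. Lifr, a receptor of this cytokine family, fell from 172, 164 and 268 to 48.3 and 32.4 CPM (-2.32 ± 0.52, adjusted p = 0.00556). Of 21 NF-kB targets, 2 fell, among them the mitochondrial dismutase Sod2, from 329.8, 315 and 313 to 198 and 185 CPM (-0.74 ± 0.16, adjusted p = 0.00415). The call for Lifr was lost without section B (adjusted p = 0.0585), and that for Sod2 with total-count scaling (adjusted p = 0.0629). The change of Ier3 was 4.73 without section A and 2.68 without section B, that of Socs3 2.53 without section B. Of the NF-kB targets, the lower calls were lost with total-count scaling.

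Antigen presentation and interferon genes did not share that rise. Of 17 genes of antigen presentation 12 fell, with a median of -1.26. Beta-2-microglobulin (B2m), the light chain of class I, fell from 2135, 1951 and 2031 to 774 and 758 CPM (-1.41 ± 0.20, adjusted p = 0.000360). The class II chain H2-Aa fell from 62.2, 63.00 and 76.3 to 16.2 and 16.1 CPM (-2.06 ± 0.34, adjusted p = 0.00107). Both injured sections were alike and below the uninjured ones. Of 32 interferon-stimulated genes 2 rose and 10 fell, with a median of -0.28 that became 0.05 with total-count scaling. Oas1a, a sensor of double-stranded RNA, rose from 1.34, 2.12 and 2.26 to 10.3 and 7.05 CPM (2.19 ± 0.30, adjusted p = 0.000301). Ifit3, an antiviral protein, fell from 13.4, 15.8 and 20.5 to 7.25 and 3.13 CPM (-1.65 ± 0.42, adjusted p = 0.0106). The call for Ifit3 was lost without section B (adjusted p = 0.0843). The change of Ifit3 was -2.402 without section A. Of the interferon-stimulated genes, 4 were called higher with total-count scaling, and 2 were called lower without section B, 5 with total-count scaling and 6 without section 4.

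Targets of p53 and mediators of cell death were higher in part. Of 27 p53 targets 13 rose and 2 fell. Eda2r, a receptor of the TNF receptor family, rose from 0.04402, 0.0552 and 0.254 to 1.46 and 1.95 CPM (3.95 ± 0.56, adjusted p = 0.000413). Phlda3, an inhibitor of Akt, rose from 1.65, 1.79 and 2.71 to 10.00 and 11.3 CPM (2.39 ± 0.35, adjusted p = 0.000536). Bax, which opens the mitochondrial outer membrane, rose from 49.04, 46.6 and 53.2 to 115 and 118 CPM (1.23 ± 0.13, adjusted p = 7.55e-05). The groups were apart in each case, yet the cell cycle inhibitor Cdkn1a, at 7.33, 16.3 and 36.9 CPM at 0 h and 36.3 and 59.7 CPM at 24 h, did not pass (adjusted p = 0.186). Among 26 cell death genes 11 rose and 3 fell, and Mlkl, which executes necroptosis, rose from 4.51, 3.699 and 4.74 to 13.8 and 10.6 CPM (1.503 ± 0.16, adjusted p = 7.76e-05). The change of Eda2r was 4.98 without section 4. Of the p53 targets, the lower calls were lost with total-count scaling, with 4 made by DESeq2. Of the cell death mediators, 1 was called lower without section B or with total-count scaling.

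Ribosome biogenesis had the highest share of members called higher among the pathway lists, 23 of 26 genes with a median of 0.96, and 21 to 26 over the alternatives. Nop56, a core protein of the nucleolar methylation complex, rose from 15.3, 20.01 and 20.2 to 60.1 and 52.8 CPM (1.61 ± 0.13, adjusted p = 2.99e-05). Gnl3, nucleostemin, rose from 22.1, 27.9 and 27.3 to 70.1 and 62.4 CPM (1.36 ± 0.13, adjusted p = 5.71e-05). Ribosomal protein genes themselves were mostly not called, with 5 of 41 higher and a median of -0.12 that was 0.21 with total-count scaling. In the proteasome 11 of 34 rose (32.4%) and 2 fell (5.88%), and in autophagy and lysosome 8 of 29 rose (27.6%) and 6 fell (20.7%). The autophagy shares were near the 23.1% and 18.6% of all genes. Of 20 splicing and speckle genes 3 rose (15%) and 2 fell (10%), both under the shares of all genes. Of the cytosolic ribosomal proteins, 3 were called higher without section A and 15 with total-count scaling. Of the proteasome subunits, 4 were called higher without section A, 7 without section 2 or 3 and 26 with total-count scaling, and the lower calls were lost without section A or B or with total-count scaling. Of the autophagy and lysosome genes, 2 were called higher without section 3, 3 without section 4 or B and 4 without section 2 or A, and 2 were called lower with total-count scaling and 11 in a fit of these 5 sections alone. Of the splicing and speckle genes, the higher calls were lost without section A, with 1 made without section 3 and 14 with total-count scaling, and the lower calls were lost without section A or with total-count scaling.

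Of 30 S phase and mitosis genes 7 rose, a share near the 23.1% of all genes called higher. Those were Mcm2, Mcm3, Mcm5, Mcm6, Gins2 and Cdt1, which license or copy DNA, and Uhrf1. Mcm6, of the replicative helicase, rose from 2.91, 3.75 and 4.89 to 13.3 and 10.98 CPM (1.67 ± 0.24, adjusted p = 0.000419). Gins2 rose from 0.704, 0.552 and 0.763 to 4.56 and 2.33 CPM (2.38 ± 0.34, adjusted p = 0.000426). Levels were low in both. Of 18 G1 genes 5 rose (27.8%) and 2 fell (11.1%), against 23.1% and 18.6% of all genes. Cyclin E1 (Ccne1) rose from 0.484, 0.534 and 0.904 to 3.44 and 3.25 CPM (2.41 ± 0.27, adjusted p = 0.000114), whereas cyclin D1 (Ccnd1) was at 13.2, 18.9 and 25.96 CPM at 0 h and 48.4 and 20.2 CPM at 24 h and did not pass. Of the S phase and mitosis genes, 4 were called higher without section A and 13 with total-count scaling. Of the G1 genes, 10 were called higher with total-count scaling.

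Many genes of cell shape rose. 25 of 34 actin genes, 6 of 12 tubulins, 12 of 20 integrins and partners and 12 of 19 annexins and S100 proteins were called higher. Gamma-actin (Actg1) rose from 195, 198 and 201 to 586 and 661 CPM (1.66 ± 0.19, adjusted p = 0.000138). Tubb6, a tubulin of low abundance in resting liver, rose from 4.29, 6.07 and 7.26 to 64.6 and 66.8 CPM (3.49 ± 0.26, adjusted p = 2.61e-05). Keratin 8 (Krt8), which with Krt18 forms the filaments of hepatocytes, rose from 199, 199.7 and 239 to 957 and 1123 CPM (2.29 ± 0.42, adjusted p = 0.00188), and Krt18 by 2.18. These were near equal in sections A and B. Of 15 keratins and cornified envelope proteins 6 rose and 2 fell. S100a6 rose from 5.11, 5.96 and 7.37 to 67.3 and 139 CPM (4.07 ± 0.62, adjusted p = 0.000822), with section B the higher. The tetraspanin Cd63 rose from 11.2, 12.6 and 12.9 to 67.2 and 93.96 CPM (2.72 ± 0.32, adjusted p = 0.000156). The adherens junction cadherin Cdh1 fell from 33.7, 33.6 and 50.4 to 17.6 and 15.8 CPM (-1.23 ± 0.21, adjusted p = 0.00113). The change of S100a6 was 3.45 without section B. Of the integrins and partners, 6 were called higher without section B. Of the keratins, 4 were called lower by DESeq2 or in a fit of these 5 sections alone.

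Targets of YAP, which responds to cell tension, rose in 12 of 20 cases and fell in 1. Ankrd1 rose from 0.2201, 0.239 and 0.254 to 19.9 and 8.200 CPM (5.88 ± 0.52, adjusted p = 4.14e-05). Cyr61, a matricellular target, rose from 6.38, 6.13 and 3.36 to 25.3 and 23.4 CPM (2.19 ± 0.32, adjusted p = 0.000552). Yap1 itself did not pass. Targets and ligands of Wnt signalling, which maintains the pericentral programme, fell in 15 of 22 cases, between 11 and 16 over the alternatives, with a median of -2.17. Axin2, the feedback inhibitor of the pathway, fell from 2.29, 2.797 and 2.49 to 0.688 and 0.351 CPM (-2.24 ± 0.34, adjusted p = 0.000552). Lgr5, the R-spondin receptor of pericentral hepatocytes, fell from 3.06, 2.52 and 2.54 to 0.08603 and 0.255 CPM (-4.07 ± 0.41, adjusted p = 7.19e-05). Ctnnb1, which codes for beta-catenin, was at 143, 137 and 142 CPM at 0 h and 117 and 129.6 CPM at 24 h and did not pass. Of the Hgf and EGF receptor axis 7 of 22 rose (31.8%) and 4 fell (18.2%), against 23.1% and 18.6% of all genes. The feedback phosphatase Dusp5 rose from 1.74, 1.77 and 1.36 to 15.8 and 22.4 CPM (3.55 ± 0.36, adjusted p = 7.76e-05) and Errfi1, a feedback inhibitor of the receptor, fell by 0.65 on the log2 scale. The call for Errfi1 was lost without section A or B (adjusted p = 0.0949 and 0.0664) and with total-count scaling (adjusted p = 0.135). The change of Ankrd1 was 5.097 without section A, that of Axin2 -2.84 without section A, that of Lgr5 -3.39 without section A and -4.94 without section B. Of the HGF and EGF receptor genes, 3 were called higher without section B, and the lower calls were lost with total-count scaling, with 1 made without section A and 2 without section B.

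Cell-type markers were checked against the liver label. Albumin (Alb) was the leading hepatocyte marker in all 5 sections, at 68813, 64888 and 66024 CPM at 0 h and 45565 and 51575 CPM at 24 h. The summed level of the 10 hepatocyte markers was 144705, 139163 and 145401 CPM at 0 h and 119499 and 140742 CPM at 24 h. Of these markers 3 were called higher and 5 lower. The sum includes the acute phase genes Hp and Fgb, which rose, so it understates the fall of other members. Fgb alone went from 5787, 6650 and 7756 to 15503 and 18846 CPM. Pericentral markers fell in 13 of 14 cases and periportal ones in 8 of 14, with medians of -2.70 and -1.29. Car3, a carbonic anhydrase of pericentral hepatocytes, fell from 4312, 2866 and 3716 to 288 and 70.8 CPM (-4.34 ± 0.83, adjusted p = 0.00272). Etnppl, a phospholyase of periportal hepatocytes, fell from 109, 113 and 91.4 to 8.88 and 7.94 CPM (-3.63 ± 0.52, adjusted p = 0.000499). The change of Car3 was -5.68 without section A and -3.66 without section B.

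Non-parenchymal markers changed in opposite directions by lineage. Sinusoidal endothelium fell in 10 of 15 markers and rose in 1, with a median of -0.87. Dnase1l3, a secreted nuclease of these cells, fell from 82.5, 90.8 and 95.3 to 28.1 and 23.7 CPM (-1.79 ± 0.16, adjusted p = 3.73e-05). Ehd3, a membrane traffic protein, fell from 60.3, 63.8 and 67.1 to 10.2 and 11.4 CPM (-2.57 ± 0.27, adjusted p = 9.04e-05). Stab2, a scavenger receptor and the first marker listed, did not pass at 51.2, 58.1 and 60.8 and then 49.6 and 45.4 CPM. Quiescent stellate markers fell in 8 of 15 cases and rose in 3, while markers of activated mesenchyme rose in 8 of 15. Lrat, which stores vitamin A in resting stellate cells, fell from 23.4, 20.7 and 22.2 to 7.05 and 10.2 CPM (-1.36 ± 0.22, adjusted p = 0.000881). Colec11, a collectin, fell from 53.8, 55.9 and 64.8 to 11.4 and 8.36 CPM (-2.55 ± 0.21, adjusted p = 2.87e-05). Tagln, a smooth muscle protein, rose from 7.62, 9.42 and 11.9 to 36.5 and 40.8 CPM (2.01 ± 0.41, adjusted p = 0.00327). Of the quiescent stellate markers, 1 was called higher without section B. Of the activated mesenchyme markers, 5 were called higher without section A.

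Myeloid cells of the liver include the resident Kupffer cells and recruited monocytes and neutrophils. Kupffer cell markers fell in 5 of 14 cases and rose in 2. Clec4f, which defines Kupffer cells, fell from 145, 158 and 167 to 87.9 and 66.7 CPM (-1.02 ± 0.24, adjusted p = 0.00616). Marco, a scavenger receptor, rose from 16.4, 13.5 and 18.4 to 254 and 273 CPM (4.04 ± 0.27, adjusted p = 2.08e-05). Monocyte and macrophage markers rose in 13 of 18 cases. Ly6c2, the first listed, was at 1.41, 1.40 and 2.80 CPM at 0 h and 2.67 and 3.13 CPM at 24 h, so the groups overlapped. The list also holds Fn1, which rose, and Arg1, which did not pass, and hepatocytes express both. Trem2, a lipid receptor of macrophages, rose from 0.682, 1.34 and 1.07 to 7.89 and 10.4 CPM (3.13 ± 0.44, adjusted p = 0.000464). Ccr2, which defines recruited monocytes, rose from 0.836, 0.644 and 1.13 to 2.58 and 4.98 CPM (2.13 ± 0.38, adjusted p = 0.00142). Neutrophil markers rose in 11 of 16 cases and fell in 1, with a summed level of 139, 95.8 and 109 CPM at 0 h and 712 and 1780.3 CPM at 24 h. Most of that sum was Lcn2, which hepatocytes also make, and without it the sums were 134, 93.5 and 102 CPM at 0 h and 90.5 and 205 CPM at 24 h, so that section A lay below the 0 h sections. Without Lcn2 and G0s2, a further gene of hepatocytes, the sums were 24.8, 30.3 and 17.8 CPM at 0 h and 62.1 and 186 CPM at 24 h. S100a9 rose from 0.8804, 3.64 and 2.74 to 20.4 and 70.2 CPM (4.21 ± 0.73, adjusted p = 0.00164), with section B above section A. The one that fell, G0s2, is also a lipolysis inhibitor of hepatocytes. The defining Ly6g, with Camp, Ngp and Mrgpra2b, was too low to be tested, and the receptor Cxcr2 was at 0.02201, 0.0552 and 0.0847 CPM at 0 h and 0.129 and 0.766 CPM at 24 h. The part of neutrophils in the chemokine and acute phase results was not tested. The call for Clec4f was lost without section B (adjusted p = 0.0647). The change of S100a9 was 4.85 without section A and 3.06 without section B. Of the Kupffer markers, 1 was called lower without section B or with total-count scaling, 2 without section A, 3 without section 3 and 8 in a fit of these 5 sections alone. Of the neutrophil markers, 7 were called higher without section B.

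Lymphocyte markers were low. T and NK markers summed to 13.98, 16.2 and 22.3 CPM at 0 h and 14.5 and 10.3 CPM at 24 h, and 8 of 14 fell and 1 rose. None of 10 B and plasma cell markers was called by edgeR, 0 passed at an unadjusted p under 0.05 and 0 by DESeq2. Dendritic markers had 1 of 10 higher and 1 lower, the latter H2-Ab1. Cholangiocyte markers rose in 4 of 12 cases. The defining Krt19 was at 1.08, 1.47 and 2.17 CPM at 0 h and 1.81 and 0.702 CPM at 24 h and did not pass, whereas Sox9, which stressed hepatocytes also express, rose from 2.16, 2.37 and 2.401 to 9.66 and 21.98 CPM (2.77 ± 0.35, adjusted p = 0.000247). Of 13 vein markers 1 rose and 5 fell. Among 8 mesothelial markers edgeR called 0, with 1 at an unadjusted p under 0.05 and 1 by DESeq2. Erythroid and platelet markers summed to 203, 1699 and 180.00 CPM at 0 h and 378 and 1115 CPM at 24 h, highest in section 3 of the uninjured sections, and 2 of 9 rose and 1 fell. The change of Sox9 was 2.06 without section B. Of the T and NK markers, 2 were called lower without section B and 5 without section 3 or 4 or with total-count scaling. Of the cholangiocyte markers, 1 was called higher without section B and 2 without section 2, 3 or A. Of the vein markers, 4 were called higher with total-count scaling, and 1 was called lower without section B and 3 without section A. Of the erythroid and platelet markers, 5 were called higher without section 3.

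**Figure D4:**
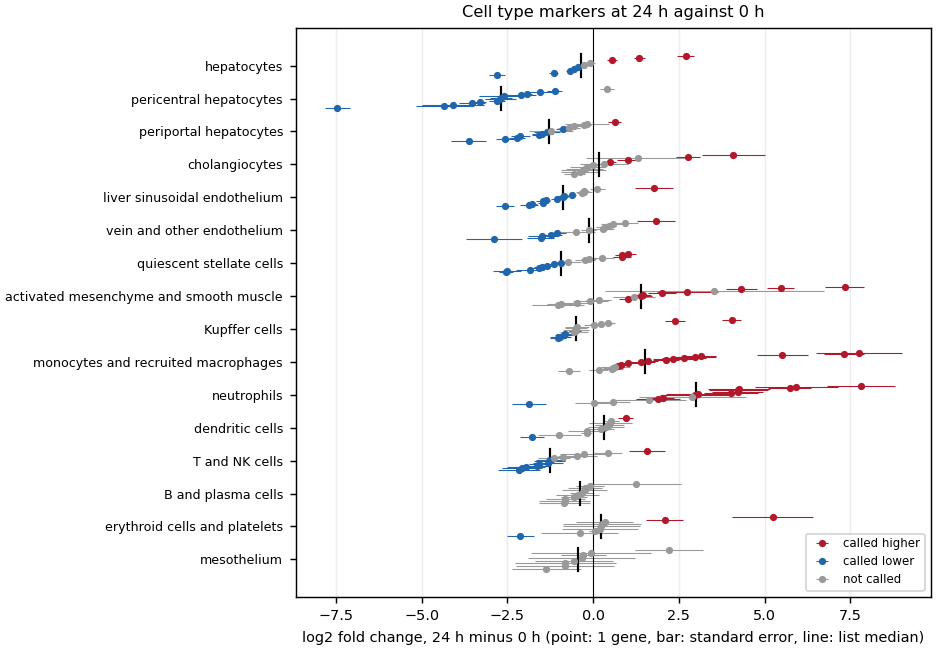
Log2 fold change of each cell type marker at 24 h against 0 h (1 point per gene, bars for the standard error of the edgeR fit, vertical strokes for the list median), in red where called higher, in blue where called lower and in grey otherwise. Pericentral markers lie farthest to the left (median -2.70) and neutrophil markers farthest to the right (median 3.01).

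Across all genes, without regard to a list, the steepest rises among called genes with a mean of at least 10 CPM in the higher group included Sprr1a, Tac1, Fosl1, Gm3776, Ch25h, Lcn2, Chil3, Mmp12, Timp1, Gm15247 and Mt2. Tac1, the precursor of the neuropeptide substance P, had no UMI at 0 h and was at 17.4 and 4.43 CPM at 24 h, at least 548-fold higher than the floor, with section A the higher. Ch25h, which makes 25-hydroxycholesterol, rose from 0.1101, 0 and 0.0282 to 9.76 and 12.7 CPM (7.89 ± 0.69, adjusted p = 3.91e-05). The non-coding Gm15247 rose from 0.308, 0.202 and 0.424 to 53.9 and 9.92 CPM (6.72 ± 0.91, adjusted p = 0.000444), higher in section A. The 12 steepest falls were Slc1a2, Gm32468, Elovl3, AC169509.3, Hamp2, Ptgds, Sult2a8, Mme, Sucnr1, Cyp4a12b, Inmt and Car3. Ptgds, which makes prostaglandin D2, fell from 7.18, 15.6 and 18.8 to 0.366 and 0.319 CPM (-5.32 ± 1.05, adjusted p = 0.00320). Mme, the peptidase neprilysin that degrades substance P among other peptides, fell from 20.01, 14.2 and 12.7 to 0.667 and 0.574 CPM (-4.64 ± 0.94, adjusted p = 0.00367). Sucnr1, the succinate receptor, fell from 41.8, 29.8 and 30.9 to 2.09 and 0.542 CPM (-4.62 ± 0.83, adjusted p = 0.00188). Inmt, an N-methyltransferase, fell from 1326, 1320.3 and 909 to 70.05 and 37.7 CPM (-4.46 ± 0.84, adjusted p = 0.00245). Uninjured and injured sections did not overlap in any of these, as in 6170 of the 6180 called genes. The change of Ch25h was 9.64 without section 2 and 7.17 without section 3, that of Gm15247 5.02 without section A and 7.47 without section B, that of Sucnr1 -5.97 without section A and -4.03 without section B.

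The injured sections also differed from each other in degree. Section B exceeded section A in the metallothioneins and neutrophil markers named above, and section A exceeded section B in lipogenic enzymes and chaperones of the endoplasmic reticulum. Thrsp, a lipogenic regulator under insulin and thyroid hormone, was at 468 CPM in section A and 40.1 CPM in section B against 955, 844 and 886 CPM at 0 h. Hsd3b5, a steroid dehydrogenase of male liver, was at 59.1 and 2.36 CPM against 277, 235 and 336 CPM and did not pass.

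**Figure D5:**
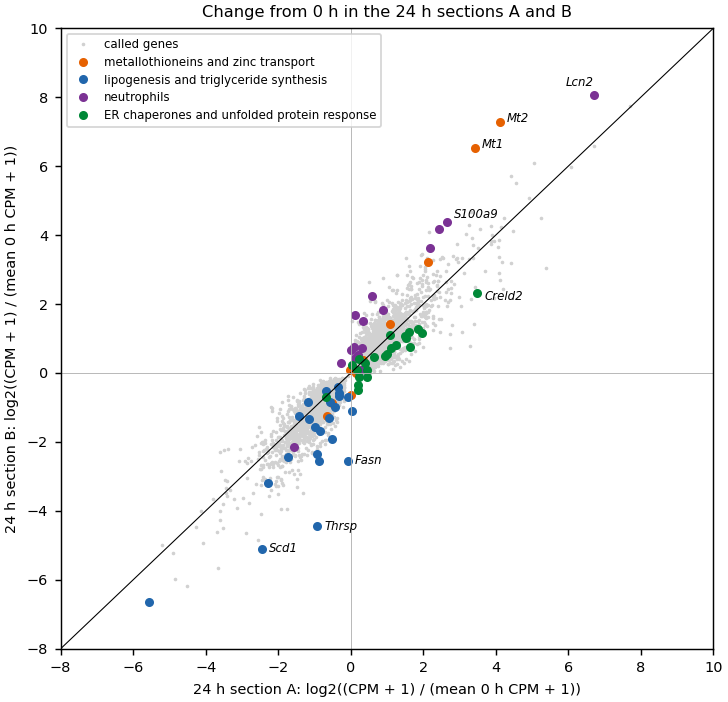
Change from the mean 0 h level in 24 h section A (horizontal axis) and section B (vertical axis), as log2 of CPM plus 1 over the 0 h mean plus 1, for called genes in grey and for 4 lists in colour; the diagonal marks equal change. Mt1 and Mt2 lie above the diagonal and Thrsp, Scd1 and Fasn below it.

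The share of spots with at least 1 UMI showed how widely a gene was detected, after each passing spot was thinned to 5000 UMIs and shallower spots were left out (7, 37 and 260 at 0 h, 5 and 32 at 24 h). Cxcl1 was detected in 0.570, 0.641 and 0.773% of spots at 0 h and 21.6 and 42.7% at 24 h. Hspa1a was detected in 0.363, 2.37 and 0.822% at 0 h and 38.9 and 31.2% at 24 h. Gsta1 was detected in 2.23, 1.39 and 1.01% at 0 h and 71.2 and 67.3% at 24 h. Without thinning the shares were 1.85 to 2.89% and 55.3 and 82.0% for Cxcl1, 2.43 to 12.3% and 69.8 and 58.0% for Hspa1a, and 3.39 to 13.5% and 92.98 and 91.4% for Gsta1. The groups did not overlap at either depth. A spot holds several cells, so a share is not a count of cells. In spots off the tissue, whose levels carry no TMM scaling, these genes were also higher at 24 h than at 0 h. Sections A and B kept their order there for Cxcl1 (42.2 and 104.6 CPM) and Hspa1a (112.8 and 109.7 CPM), but not for Gsta1. Gsta1 there was at 317 CPM in section A and 352 CPM in section B, against 2.21 to 5.16 CPM at 0 h. Mt1 in spots off the tissue was at 1996 and 14329 CPM at 24 h against 84.9 to 177 CPM at 0 h, and the part of such RNA in the shares was not tested.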

How the data were processed

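Spatial transcriptomes of frozen mouse liver sections were measured with Visium, and 5 of 11 deposited sections were compared (0 h, n = 3; 24 h, n = 2). The deposited files held raw UMI counts per gene and spot barcode, which the authors made with Space Ranger 1.0.0 against mm10 (versions as in the submitters' processing notes), unfiltered and not normalized. All sections list the same 4992 barcodes, which are those of the array, and 31053 genes. A second deposited file places each barcode on or off the tissue.

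Counts were summed per section over spots on tissue with at least 800 genes and at most 20% mitochondrial UMIs, which removed 157 spots at 0 h and 1 at 24 h. A section, not a spot, was the replicate. The sums of all 11 sections were fitted together by time with edgeR 4.0.16 (R 4.3.3), after filterByExpr and TMM scaling, and 24 h was tested against 0 h with the robust quasi-likelihood F test and Benjamini-Hochberg adjustment over 14821 genes. The TMM factors were 0.783 to 0.811 at 0 h and 1.01 and 0.983 at 24 h. A standard error is the absolute log2 fold change over the square root of F. No 0 h or 24 h pair of sections agreed within sampling noise.

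The members, the 78 gene lists (1402 genes tested) and the rules were chosen with earlier results of these data known, and no list was tested as a set. Genes were named from the first listed gene and up to 4 called members of each list with the largest change, secreted genes changed at least 2-fold with at least 20 CPM, and the 12 steepest changes each way. Genes outside these were chosen after their values were seen. A fold for a gene with no UMI at 0 h was set against 3 UMIs over that group, and intervals (95%) and floors cover counting error only. Promoter sequences are from RefSeq (GRCm38.p6), and gene positions are on the same build. Alternatives were DESeq2 1.42.0, other scalings, filters and spot sets, only these 5 sections, and each section left out. Images and the other time points were not analysed beyond the shared fit. A few genes that the rule selects are not reported here.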

Additional observations from a re-analysis of the deposited data

How the results depend on the processing

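Over all genes, 6180 were called, and 7460 had an unadjusted p under 0.05. Total-count scaling gave 6097 higher and 1487 lower calls in place of 3426 and 2754, and it kept 4913 of the 6180 calls. With 1 section left out, calls ranged from 4182 to 5274 in all, 2424 to 2692 higher and 1758 to 2582 lower; 4791, 4903 and 5148 of the 6180 calls were kept without 0 h sections 2, 3 and 4, 4177 without section A and 3975 without section B. When 1 of the 24 h sections was left out, the other was assumed to vary like the other groups. Of 361 genes named by rule, 68 lost their call without section B, 45 without section A, and 14 with total-count scaling. DESeq2, its size factors in edgeR, the full tissue mask, no filter on low counts and the 5 sections alone left the counts of calls within 1.5 times. No paired analysis was possible because the 0 h and 24 h sections share fewer than 2 replicate numbers. The sections come from few animals, which limits what the p-values cover.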
